A study of Homo sapiens with 6 samples.

Results

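The genes described here carry symbols made of RAB or VPS and a digit. Most encode proteins of vesicle transport, while VPS72, counted among them by its symbol, belongs to chromatin complexes. They were taken by symbol from the protein-coding genes of the array's gene table, with the brightest probe set (the group of probes that reports 1 transcript) over the 6 arrays standing for each gene. The rule gave 45 genes of 14884 named genes, 34 with VPS symbols and 11 with RAB symbols. The other class of the rule, symbols starting with ATP6V for the subunits of the proton pump V-ATPase, gave 0 genes, and those subunits are not analysed here. Of the 11 RAB symbols, RAB6D alone names a Rab GTPase, and the 10 others name proteins that bind or regulate Rab GTPases. The label of vesicle genes therefore covers VPS complexes and Rab partner proteins, and not the Rab GTPases or the pump. The rule reads symbols and no levels, though it was set with earlier results of these data known.

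The cells were SH-SY5Y, a human neuroblastoma line grown in serum-containing medium, and every group comes from this 1 line. The groups were securinine at 30 µM for 24 h, 16F16 at 4 µM for 24 h, and the solvent methanol for 24 h (mock), with 2 arrays each, called biological replicates in the labels. Both agents are described there as blocking protein disulfide isomerase, an enzyme that forms disulfide bonds in the endoplasmic reticulum. Their doses differ. How the cultures of a group were separated is not given in the sources used here, so p-values measure the spread between these samples, which may be technical.

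VPS genes were first found in yeast as genes needed to sort proteins to the vacuole, the yeast counterpart of the lysosome. Their products work as complexes: HOPS and CORVET tether endosomes and lysosomes before fusion, retromer and retriever return cargo from endosomes, GARP and EARP tether vesicles that arrive at the Golgi or at recycling endosomes, and ESCRT complexes bud vesicles into endosomes. VPS13 proteins carry lipids between membranes that touch. Rab GTPases mark each compartment, and activators, inhibitors and effectors read or set that mark. Neuronal cells use these routes for secretory granules, receptors and synaptic vesicles.

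The values were log2 expression levels, and their median on an array lay between 4.16 and 4.23. Across probe sets, arrays of a group correlated at 0.986 to 0.990 and arrays of different groups at 0.979 to 0.986. Of 10 measured markers of noradrenergic neuroblastoma cells, 9 lay above the upper quartile of all probe sets on every array, among them the transcription factors HAND2 and ISL1. Of 5 measured markers of epithelial, blood, endothelial and fibroblast cells, KRT18 did so, while PECAM1 and DCN lay below the median on all 6 arrays. The noradrenergic markers had a summed level (log2 of the sum) of 13.51 to 13.60 with securinine, 13.76 to 13.80 with 16F16 and 13.95 to 13.99 with mock. With securinine CHGA, DDC, GATA2, CHGB and DBH were called lower (log2 differences of -2.22, -2.05, -1.01, -0.64 and -0.59). PHOX2A, HAND2, GATA3, ISL1 and TH did not pass. With 16F16 CHGA, DDC and CHGB were called lower (-1.24, -1.06 and -0.81). The summed level of the other markers was 7.46 on both securinine arrays, 7.41 to 7.52 with 16F16 and 7.44 to 7.49 with mock. The monocyte marker CD14 rose by 0.57 ± 0.14 with securinine, though it lay below the median on 3 of 6 arrays. PECAM1 was at -0.54 ± 0.19, EPCAM at -0.19 ± 0.12, and KRT18 and DCN both at -0.04, all without passing. Whether these marker shifts play a part in the results below was not tested. Fewer cells of a type and less RNA per cell cannot be told apart in such bulk RNA.

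Securinine against mock. With securinine 8 of 34 VPS genes rose and 2 fell, which is 23.5% and 5.88% against 8.4% and 10.6% of all named genes. Of 11 RAB-named genes 0 passed the test. The ESCRT-I subunit VPS37A showed the largest rise, a log2 difference of 0.71 ± 0.085, or 1.63-fold (SE from limma; n = 2 for each group). The GARP subunit VPS51 showed the largest fall, by 0.92 ± 0.098, and was 1.89-fold lower. HOPS subunits VPS39, VPS18 and VPS33A and the lipid transfer genes VPS13B, VPS13C and VPS13D rose by 0.35 to 0.48, and VPS33B fell by 0.56 ± 0.089. A gene was called where its limma p, adjusted by the Benjamini-Hochberg method over 14884 genes, was under 0.05.

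In total 10 of 45 members were called with securinine, 8 higher and 2 lower. Over all named genes the share called was 19.0%, with 8.4% higher and 10.6% lower. The members' shares were 22.2% in either direction, 17.8% higher and 4.44% lower, so the total lay near the background while higher calls outnumbered lower ones. The median log2 difference of the 45 members was 0.057, against -0.035 over all named genes. All 10 called genes had VPS symbols. The RAB-named genes gave 0 of 11 calls in limma, with 2 of 11 at an unadjusted p under 0.05. Of all 45 members 21 reached that level, 15 higher and 6 lower, against 33.6% of all named genes (14.9% higher and 18.7% lower). Fewer genes were called with an array left out, among members and among all named genes alike. With mock replicate 1 left out, 0 members and 1.83% of all named genes were called higher, and with mock replicate 2 left out, 1 member and 1.7%. Leaving out securinine replicate 1 gave 1 member and 1.76%, and leaving out securinine replicate 2 gave 1 member and 2.55%. The fit of the 4 securinine and mock arrays alone called 6 members and 7.16% of all named genes higher. Leaving out either 16F16 array repeats that fit, since a lone array adds nothing to the estimate of the spread. A fit of all 53617 probe sets changes both the variance prior and the number of features adjusted together. It called 1 member higher and 1 lower, with 2.9% and 3.9% of all named genes. There the share of members called higher was not above that of all named genes. In the fit of the 4 securinine and mock arrays VPS37A and VPS51 were called, and VPS33A and VPS13D were not. Over all 14 alternatives the difference of VPS37A stayed between 0.66 and 0.75, that of VPS33A between 0.31 and 0.49 and that of VPS13D between 0.29 and 0.41.

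**Figure D1:**
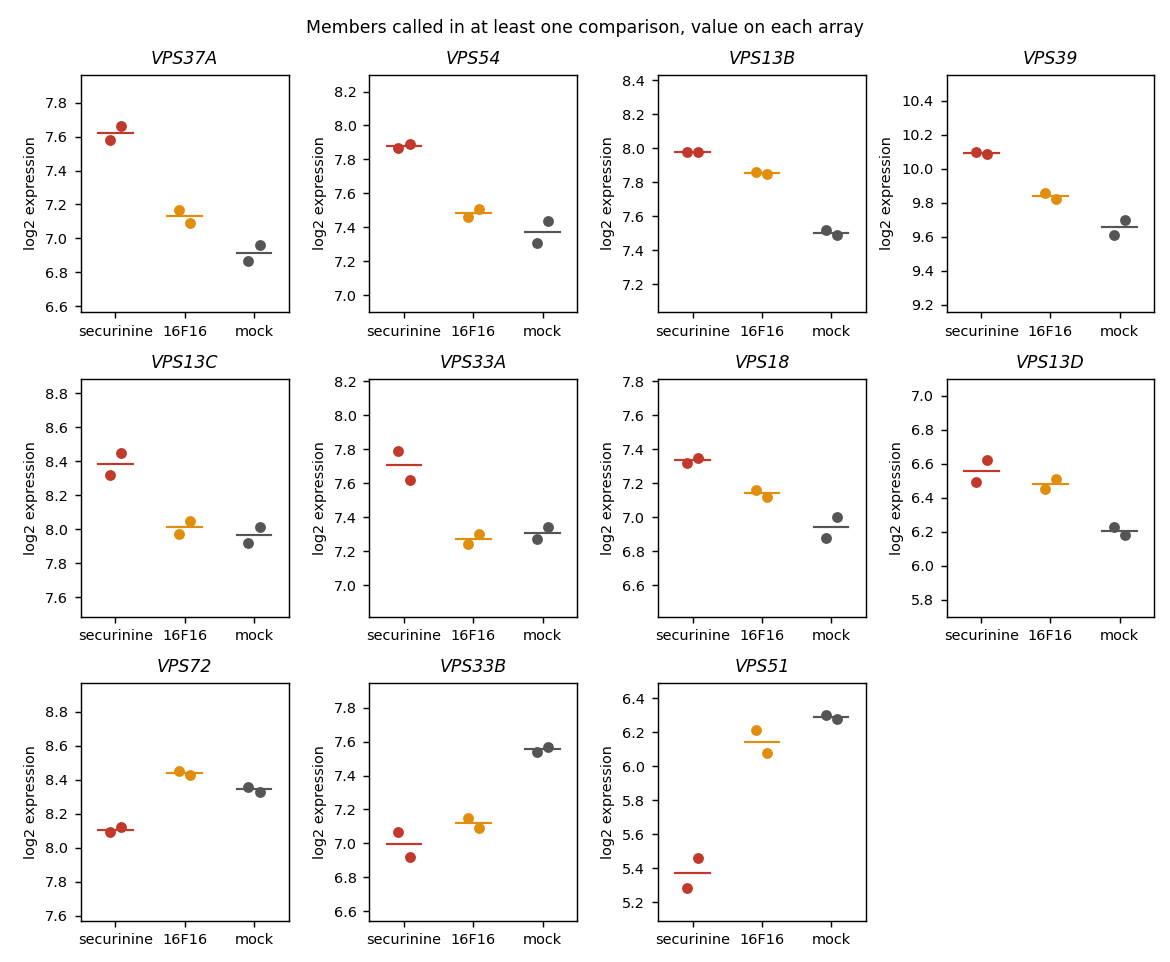
Log2 expression of the 11 genes called in at least 1 comparison (vertical axes, each spanning the same range of log2 units), with securinine, 16F16 and mock from left to right. Points are arrays and lines are group means of 2 arrays. VPS37A lies between 7.58 and 7.66 with securinine and between 6.87 and 6.96 with mock, and VPS51 lies at 5.28 and 5.46 with securinine and at 6.30 and 6.28 with mock.

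Tethering and fusion genes moved in both directions. VPS39, which forms 1 end of the HOPS tether, had 10.10 and 10.09 with securinine, 9.86 and 9.82 with 16F16, and 9.61 and 9.70 with mock. Both securinine arrays lay above the 16F16 arrays, which lay above the mock arrays. The rise with securinine was 0.44 ± 0.079 (limma adjusted p = 0.018). VPS18, a core subunit that HOPS and CORVET share, had 7.32 and 7.35 with securinine, 7.16 and 7.12 with 16F16, and 6.88 and 7.0 with mock. It showed the same order of groups with no overlap, and its rise with securinine was 0.40 ± 0.082 (adjusted p = 0.027 in limma).

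VPS33A and VPS33B are paralogs of the Sec1/Munc18 family, which guides SNARE proteins into fusion. VPS33A serves HOPS and CORVET, and VPS33B works in a separate complex needed for lysosome-related organelles. VPS33A had 7.79 and 7.62 with securinine, 7.24 and 7.30 with 16F16, and 7.27 and 7.34 with mock. The securinine arrays were high, and the 16F16 and mock arrays overlapped. It rose by 0.40 ± 0.094 with securinine (limma adjusted p = 0.038). VPS33B had 7.07 and 6.92 with securinine, 7.15 and 7.09 with 16F16, and 7.54 and 7.57 with mock. Here the arrays of both compounds lay below both mock arrays, and the fall with securinine had an adjusted p of 0.013 in limma.

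The remaining 4 of 8 genes in this class did not pass with securinine. They were the shared core subunit VPS11, the HOPS subunit VPS41, the CORVET subunit VPS8 and VPS45, a Sec1/Munc18 protein of endosome and Golgi transport. The differences of all 8 genes ranged from -0.56 to 0.44, with a median of 0.061. In this class 37.5% were called higher and 12.5% lower, against 8.4% and 10.6% of all named genes. Of the uncalled HOPS subunits VPS11 was at -0.10 ± 0.080 and VPS41 at 0.02 ± 0.083. Whether subunits differ from each other was not tested.

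GARP subunits were also called in both directions. GARP is built from VPS51, VPS52, VPS53 and VPS54, and EARP holds VPS50 in place of VPS54. VPS51 had 5.28 and 5.46 with securinine, 6.21 and 6.08 with 16F16, and 6.30 and 6.28 with mock. Both securinine arrays were far below the other 4, and the fall had a limma adjusted p of 0.0050. Over the 14 alternatives run, some of which repeat the same fit, the difference of VPS51 lay between -1.01 and -0.81. It has a second, dimmer probe set, at 5.22 and 5.34 with securinine, 6.16 and 5.75 with 16F16, and 5.93 and 6.03 with mock, a difference of -0.70 between securinine and mock.

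VPS54, the subunit that sets GARP apart from EARP, had 7.87 and 7.89 with securinine, 7.46 and 7.51 with 16F16, and 7.31 and 7.44 with mock. The groups did not overlap, and VPS54 rose by 0.50 ± 0.083 with securinine (limma adjusted p = 0.014). VPS53 was at 0.36 ± 0.094 and VPS50 at 0.34 ± 0.097 without passing (adjusted p = 0.051 and 0.062 in limma), with both securinine arrays above both mock arrays. VPS52 was at -0.03 ± 0.081, with a 95% interval of -0.23 to 0.17. Of the 5 genes 1 rose, 1 fell and 3 did not pass.

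The 250 bases before the start of 4 genes are printed from the RefSeq promoter table (GRCh38.p14), read 5′ to 3′ on the gene's strand. VPS54 and VPS51 are shown because subunits of the same complex moved in opposite directions, VPS13C because it rose and holds 1 of the motifs searched, and RAB3GAP2 because it holds the CLEAR letters. VPS54 lies on the minus strand at chr2:64019429-64019678, VPS51 on the plus strand at chr11:65095964-65096213, VPS13C on the minus strand at chr15:62060448-62060697 and RAB3GAP2 on the minus strand at chr1:220272454-220272703. Capitals mark motif matches.
VPS54: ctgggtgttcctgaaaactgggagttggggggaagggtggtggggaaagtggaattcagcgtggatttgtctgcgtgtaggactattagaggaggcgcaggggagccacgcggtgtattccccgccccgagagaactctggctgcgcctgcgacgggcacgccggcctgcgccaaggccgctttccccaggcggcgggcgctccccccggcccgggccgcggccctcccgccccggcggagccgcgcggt
VPS51: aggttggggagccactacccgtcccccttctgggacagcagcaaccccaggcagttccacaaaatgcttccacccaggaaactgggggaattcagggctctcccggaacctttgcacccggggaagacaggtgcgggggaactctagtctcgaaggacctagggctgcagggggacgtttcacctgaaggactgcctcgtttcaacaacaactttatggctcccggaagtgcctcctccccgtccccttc
VPS13C: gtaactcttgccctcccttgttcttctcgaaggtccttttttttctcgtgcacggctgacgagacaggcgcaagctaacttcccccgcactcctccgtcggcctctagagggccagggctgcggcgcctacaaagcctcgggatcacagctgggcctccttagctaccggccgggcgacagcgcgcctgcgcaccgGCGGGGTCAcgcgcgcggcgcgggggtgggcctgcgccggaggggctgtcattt
RAB3GAP2: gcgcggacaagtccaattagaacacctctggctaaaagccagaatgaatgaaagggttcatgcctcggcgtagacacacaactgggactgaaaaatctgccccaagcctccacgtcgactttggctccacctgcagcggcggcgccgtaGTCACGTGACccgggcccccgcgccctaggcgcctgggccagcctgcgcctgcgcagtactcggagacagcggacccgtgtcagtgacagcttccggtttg

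Motifs were searched on both strands as letters. The palindromic CLEAR element, bound by TFEB and TFE3, which drive lysosome genes, is TCACGTGA with a G before it and a C after it. TCACGTGA and the E-box core CACGTG lie within it, so the 3 matches overlap. TGACNNNGC is the core of the antioxidant response element bound by NRF2. Of 45 members 33 had an entry in the table, with 41 starts in all. The palindromic CLEAR element was found in 1 of these 33 genes, RAB3GAP2, and in 0.374% of all genes of the table (0.308% of its 35116 windows). TCACGTGA was found in 3 (RAB3GAP2, VPS11 and VPS26C), and in 1.04% of all genes (0.854% of windows). CACGTG was found in 5 (also VPS36 and VPS37B), and in 7.73% of all genes (6.34% of windows). TGACNNNGC was found in 5 (RAB11FIP5, VPS11, VPS13C, VPS26C and VPS35), and in 13.2% of all genes (10.9% of windows). Of the 10 genes called with securinine 5 had an entry, and among these 0 held CACGTG and 1, VPS13C, held TGACNNNGC, on the reverse strand at bases 54 to 46 before the start. In RAB3GAP2 the CLEAR letters lie at bases 101 to 92 before the start, and the gene was at -0.01 ± 0.086 with securinine (95% interval -0.22 to 0.21). A match is a run of letters and not a binding site, and these windows do not show whether a factor binds.

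Retromer and retriever genes lay mostly above 0 with securinine without passing. Retromer joins VPS35, VPS29 and VPS26A or VPS26B, and retriever joins VPS35L, VPS29 and VPS26C. Of these 6 genes 0 were called in limma, 3 had an unadjusted p under 0.05, and the median difference was 0.195. Of all named genes 19.0% were called with securinine and 33.6% reached that unadjusted level. VPS35L had 9.19 and 9.24 with securinine, 9.01 and 9.01 with 16F16, and 8.97 and 8.99 with mock. Its securinine arrays lay above the rest, and its difference was 0.23 ± 0.075 (limma adjusted p = 0.086). VPS26C was at 0.49 ± 0.15 and spread from 4.76 to 5.16 between the mock arrays alone. VPS29, which both complexes use, was at 0.20 ± 0.079.

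Among ESCRT genes VPS37A was called with securinine, as 1 of 9, or 11.1% where 19.0% of all named genes were called. VPS37A, VPS37B, VPS37C and VPS37D are alternative subunits of ESCRT-I, the complex that gathers ubiquitin-tagged cargo. VPS37A had 7.58 and 7.66 with securinine, 7.17 and 7.09 with 16F16, and 6.87 and 6.96 with mock. The groups were ordered without overlap, and the rise with securinine had a limma adjusted p of 0.0065. VPS4A, an ATPase that takes ESCRT filaments apart, was at 0.21 ± 0.078, and the ESCRT-II subunit VPS25 was at -0.22 ± 0.076, both without passing. The differences of VPS37B depended on its probe set, at -0.13 for the brighter and 0.32 for the dimmer one.

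Of the 4 genes of lipid transfer proteins 3 rose with securinine, in a small class, where 8.4% of all named genes rose. VPS13B, a Golgi and endosome protein, had 7.98 and 7.98 with securinine, 7.86 and 7.85 with 16F16, and 7.52 and 7.49 with mock. The arrays of both compounds stood above both mock arrays, and the rise with securinine was 0.48 ± 0.074 (limma adjusted p = 0.012). VPS13C, found at contacts of the endoplasmic reticulum with late endosomes and lysosomes, had 8.32 and 8.45 with securinine, 7.97 and 8.05 with 16F16, and 7.92 and 8.01 with mock. Both securinine arrays lay above the other 4, and the rise was 0.42 ± 0.090 (limma adjusted p = 0.028). VPS13D, linked to mitochondria and peroxisomes, had 6.49 and 6.62 with securinine, 6.45 and 6.51 with 16F16, and 6.23 and 6.18 with mock. Arrays of the compounds overlapped each other above both mock arrays, and the rise with securinine was 0.35 ± 0.084 (limma adjusted p = 0.041). VPS13A, the fourth member, was at -0.09 ± 0.075.

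VPS72 and VPS9D1 share the VPS letters but not the sorting complexes. VPS72 is a subunit of chromatin complexes that exchange histone H2A.Z, and VPS9D1 carries a domain found in activators of early endosome Rab GTPases. VPS72 had 8.09 and 8.12 with securinine, 8.45 and 8.43 with 16F16, and 8.36 and 8.33 with mock. Its securinine arrays were the low ones, at a difference of -0.25 ± 0.074 from mock that did not pass (limma adjusted p = 0.074). VPS9D1 was at 0.06 ± 0.084.

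RAB-named partner proteins stayed within -0.24 and 0.33 of mock with securinine, with a median of -0.045 over the 11 RAB symbols. RAB3GAP1, the catalytic subunit of an inactivator of RAB3 that also activates RAB18, had 8.51 and 8.59 with securinine, 8.15 and 8.19 with 16F16, and 8.28 and 8.15 with mock. The securinine arrays lay above the others, at 0.33 ± 0.088, which did not pass (limma adjusted p = 0.053). RAB5IF was at -0.24 ± 0.087 and RAB11FIP2, an effector of RAB11 in recycling, at 0.19 ± 0.081. RAB6D had 1.70 and 1.65 with securinine, 1.66 and 1.51 with 16F16, and 2.11 and 1.44 with mock. It was under the lower quartile of its array on every array, mock replicate 1 decided the sign, and RAB6C is a near-identical copy, so its value is uncertain. RAB3IP lay below the median of all probe sets on 6 arrays.

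**Figure D2:**
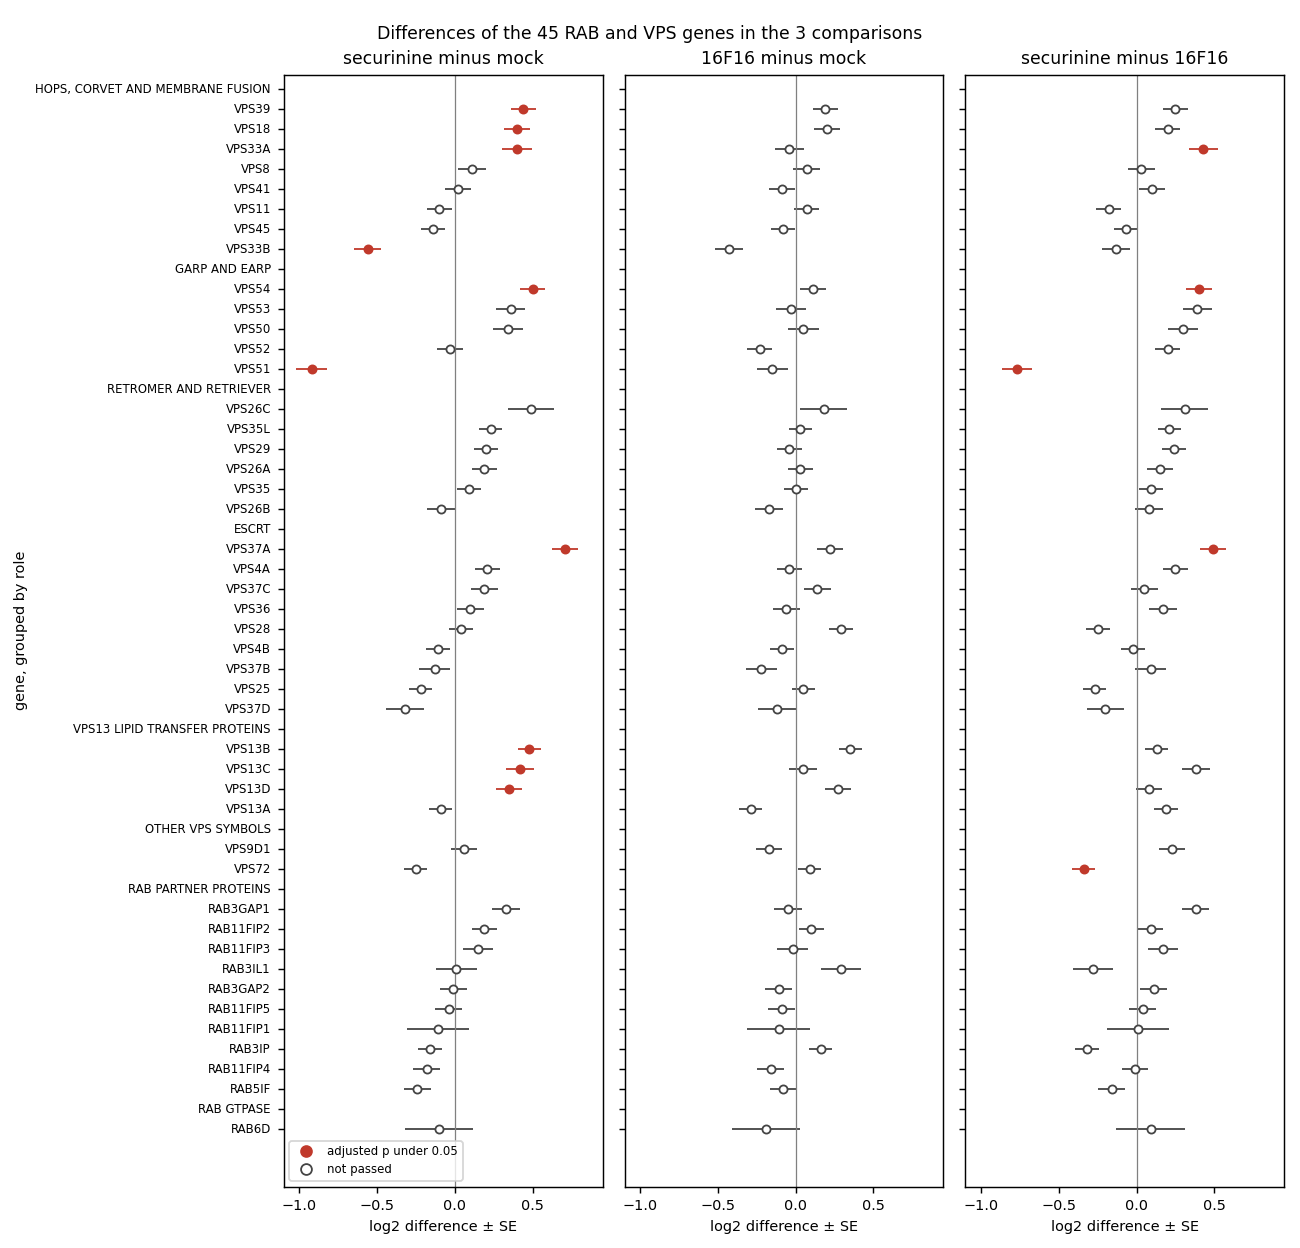
Log2 differences (horizontal axes) of the 45 genes, grouped by role, for securinine minus mock, 16F16 minus mock and securinine minus 16F16, with bars of 1 SE from limma and n = 2 arrays per group. Filled red points passed an adjusted p under 0.05. The left panel holds 10 such points, the middle panel 0 and the right panel 5.

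16F16 against mock. With 16F16 0 of the 45 members were called in limma, where 1.5% of all named genes were (0.719% higher and 0.779% lower). At an unadjusted p under 0.05 there were 7 of 45 members, 4 higher and 3 lower, where 21.1% of all named genes reached it (9.78% higher and 11.3% lower). Differences ranged from -0.43 to 0.35, with a median of -0.033 against -0.012 over all named genes. When limma's variance prior followed intensity, 3 members were called higher and 3 lower, with 5.73% and 6.42% of all named genes. With the test limited to genes above the median of all probe sets, 1 and 2 members were called, with 4.68% and 5.36% of the genes tested.

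The members called with securinine had the following differences with 16F16. VPS33B was at -0.43 ± 0.089 with 16F16 (limma adjusted p = 0.075) and VPS13B at 0.35 ± 0.074 (adjusted p = 0.078 in limma). VPS13D was at 0.27 ± 0.084, VPS37A at 0.22 ± 0.085, VPS18 at 0.20 ± 0.082 and VPS39 at 0.19 ± 0.079, and in each both 16F16 arrays lay above both mock arrays. VPS51 was at -0.15 ± 0.098, VPS54 at 0.11 ± 0.083, VPS13C at 0.05 ± 0.090 and VPS33A at -0.04 ± 0.094. Both comparisons use the same mock arrays, so their values stand side by side and no overlap is read from them.

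VPS28 and VPS13A had larger differences with 16F16 than with securinine, without passing in either. The ESCRT-I subunit VPS28 had 7.79 and 7.83 with securinine, 8.07 and 8.04 with 16F16, and 7.79 and 7.74 with mock. The 16F16 arrays stood above the other 4, at 0.29 ± 0.076 from mock (limma adjusted p = 0.12). VPS13A, the gene mutated in chorea-acanthocytosis, had 8.24 and 8.25 with securinine, 8.04 and 8.07 with 16F16, and 8.32 and 8.37 with mock. It was lowest on the 16F16 arrays, at -0.29 ± 0.075 (adjusted p = 0.12 in limma). VPS52 was at -0.23 ± 0.081, with -0.33 for its dimmer probe set, and VPS26B, VPS26C, VPS72 and VPS9D1 lay between -0.17 and 0.18. RAB3IL1, an activator of RAB3A, was at 0.29 ± 0.13, and RAB3IP, an activator of RAB8, at 0.16 ± 0.076.

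Securinine against 16F16. A call in 1 comparison and none in another does not show a difference between the compounds, so that difference was tested directly, at the unequal doses given. In it 5 of 45 members were called, 3 higher with securinine and 2 lower, which is 11.1% where 9.51% of all named genes were called (3.96% higher and 5.55% lower). VPS37A was higher with securinine than with 16F16 by 0.49 ± 0.085 (limma adjusted p = 0.029), VPS33A by 0.43 ± 0.094 (0.047) and VPS54 by 0.40 ± 0.083 (0.043). VPS51 was at -0.77 ± 0.098 (adjusted p = 0.016 in limma) and VPS72 at -0.34 ± 0.074 (0.049). VPS13B at 0.13 ± 0.074, VPS33B at -0.13 ± 0.089 and VPS13D at 0.08 ± 0.084 did not pass. Leaving out any 1 of the 6 arrays gave 0 member calls in this comparison, with 10 to 18 members at an unadjusted p under 0.05. The share of all named genes in these fits was 0.618% or less higher and 1.56% or less lower. The fit of all probe sets, with its own variance prior, gave 0 calls among members and among all named genes. With all 6 arrays 19 members reached that level, 14 higher and 5 lower, against 27.7% of all named genes (12.9% higher and 14.8% lower). Quantile normalization called 1 higher and 4 lower.

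Genes next to the called members were looked at because probes can share a locus. MTMR7 overlaps VPS37A in RefSeq and was at -0.58 ± 0.094 with securinine, opposite in sign to VPS37A. Within 5 kb, CLIP1 beside VPS33A was at 0.63 ± 0.088 and TMEM87A beside VPS39 at 0.45 ± 0.094, the same sign as those members. TM7SF2 beside VPS51 was at 0.04 ± 0.081, UGP2 beside VPS54 at -0.01 ± 0.12 and PRC1 beside VPS33B at -0.06 ± 0.091. The microRNA gene MIR627 overlaps VPS39 and was at -0.22 ± 0.11, opposite in sign to VPS39. MIR599 and MIR875, which overlap VPS13B, were at 0.01 ± 0.12 and 0.32 ± 0.22. COX6C beside VPS13B was at -0.03 ± 0.099 and TMOD4 beside VPS72 at 0.18 ± 0.14. MTMR7, CLIP1 and TMEM87A passed with securinine (limma adjusted p = 0.013, 0.0091 and 0.026), and the other neighbours named here did not.

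Wider pathway. Of 6 lists of partner genes, the list of MiT/TFE factors and lysosome genes had the largest share of calls with securinine. The lists were chosen with earlier results of these data known, so their shares describe them and are no independent support. There 16 of 27 measured genes rose and 2 fell (59.3% and 7.41%, against 8.4% and 10.6% of all named genes), with a median difference of 0.42. TFE3, a transcription factor that binds CLEAR elements, had 8.76 and 8.71 with securinine, 8.0 and 8.0 with 16F16, and 7.37 and 7.35 with mock. The groups were ordered without overlap, and the rise was 1.37 ± 0.075 with securinine and 0.64 ± 0.075 with 16F16 (limma adjusted p = 0.0018 and 0.033). FNIP2, a partner of folliculin in lysosomal nutrient sensing, rose by 1.26 ± 0.074 with securinine and by 0.53 ± 0.074 with 16F16, and the protease CTSA rose by 0.88 ± 0.077 with securinine. The 2 falls, named after their values were seen, were the protease CTSF (-0.47 ± 0.12) and the Rag GTPase RRAGD (-0.41 ± 0.085). With 16F16 TFE3 and FNIP2 were the 2 called genes of 27 (7.41%, against 1.5% of all named genes), and the median was 0.243. With 1 array left out, fewer genes of the list and fewer of all named genes were called, with either compound.

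Among 22 regulators of Rab GTPases 5 rose and 3 fell with securinine, with a median of 0.155. These are 22.7% and 13.6%, against 8.4% and 10.6% of all named genes, so the share of falls lay near the background. CHML, an escort protein that presents Rab GTPases for prenylation, had 7.69 and 7.86 with securinine, 8.79 and 8.73 with 16F16, and 9.11 and 9.24 with mock. Its securinine arrays were more than a log2 unit below mock, a fall of 1.40 ± 0.098 (limma adjusted p = 0.0025). The prenylated Rab acceptor RABAC1 fell by 0.67 ± 0.086 and RIN2, an activator of RAB5, by 0.49 ± 0.079. The rises, named after their values were seen, were RABGEF1 (0.46 ± 0.094), RABGAP1 (0.44 ± 0.076), RGP1 (0.40 ± 0.090), DENND4C (0.32 ± 0.075) and DENND5A (0.31 ± 0.077).

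Among 32 Rab effectors and tethers 4 rose and 5 fell, with a median of 0.012. These are 12.5% and 15.6%, not far from the 8.4% and 10.6% of all named genes. RPH3A, an effector of RAB3 on synaptic vesicles, had 5.14 and 5.23 with securinine, 6.66 and 6.42 with 16F16, and 6.97 and 6.66 with mock. Both securinine arrays lay far below the other 4, with a fall of 1.63 ± 0.14 (limma adjusted p = 0.0038). The RAB7 effector OSBPL1A fell by 1.02 ± 0.099 and the RAB27 effector SYTL5 rose by 0.67 ± 0.10. SYTL5 lay below the median of all probe sets on all 6 arrays and under the lower quartile on 1, so its value is uncertain. The other calls, named after their values were seen, were rises of BICD2, RIMS2 and EXOC5 (0.49, 0.48 and 0.40) and falls of MYRIP (-0.67), RILPL2 (-0.57) and EXOC1 (-0.39). The rise of EXOC5 depended on its probe set, since the mean of all its probe sets was at 0.10 ± 0.085 and did not pass.

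Of 40 partners of the VPS complexes 3 rose and 2 fell, which is 7.5% and 5.0% against 8.4% and 10.6% of all named genes, with a median of 0.062. The ESCRT-III subunits CHMP2B and CHMP1B fell by 0.52 ± 0.093 and 0.37 ± 0.082. The ESCRT-I subunit UBAP1 rose by 0.40 ± 0.083, and STAM2 (0.37 ± 0.085) and WASHC3 (0.36 ± 0.081), named after their values were seen, rose too. Of 30 SNARE and fusion genes 4 rose and 4 fell, with a median of 0.034, which is 13.3% in each direction against 8.4% higher and 10.6% lower of all named genes. The late endosome SNARE STX7 fell by 0.78 ± 0.094, STX2 by 0.61 ± 0.077, and NSF, the ATPase that separates SNARE bundles, rose by 0.53 ± 0.088. The others, named after their values were seen, were STX3 (0.65), GOSR1 (0.37), VTI1A (0.36), STX10 (-0.63) and STX1A (-0.51). Of 8 assembly factors and partners of the V-ATPase 0 were called in limma with securinine and 2 had an unadjusted p under 0.05. Of all named genes 19.0% were called and 33.6% reached that unadjusted level. DMXL2 was at 0.19 ± 0.074, TMEM9 at -0.21 ± 0.085 and NCOA7 at -0.16 ± 0.096.

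With 16F16 the regulator, effector, VPS partner and V-ATPase partner lists gave 0 calls each in limma, with 3 of 22, 6 of 32, 7 of 40 and 3 of 8 genes at an unadjusted p under 0.05. Of all named genes 1.5% were called and 21.1% reached that level, so the first 3 of these counts lie under the background. Among 30 SNARE and fusion genes VAMP1, a synaptic vesicle SNARE named after its values were seen, rose by 0.90 ± 0.13 with 16F16 (limma adjusted p = 0.042), and it was at 0.23 ± 0.13 with securinine.

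**Figure D3:**
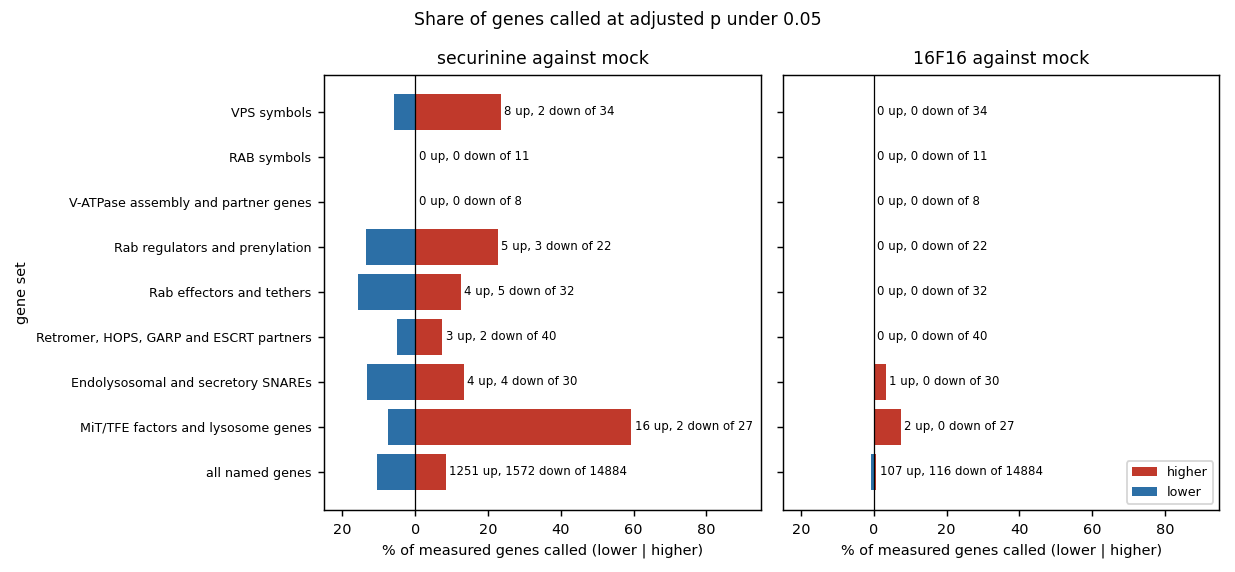
Share of measured genes called at an adjusted p under 0.05 (horizontal axis, percent, higher to the right and lower to the left of 0) for securinine against mock and 16F16 against mock, in the VPS and RAB symbols, the 6 partner lists and all named genes. With securinine the bars reach 59.3% higher for MiT/TFE factors and lysosome genes, 23.5% for VPS symbols and 8.4% for all named genes. The partner lists were chosen with earlier results of these data known.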

How the data were processed

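Total RNA from 6 SH-SY5Y samples was hybridised to the Human Gene 2.0 ST array of Affymetrix, per the labels. The 53617 deposited values per sample are log2 intensities, by their range. RMA, per the submitters' processing notes, was used, and these also name limma but no settings. RMA removes changes that most genes share and keeps no detection call. Filters, annotation release and build: not given in the sources used here. A table of the platform annotation named 16098 probe sets with 1 gene symbol, 0 with several, and left 37519 unnamed. Against RefSeq (GRCh38.p14) 0 symbols changed. The rule's letters also matched 5 noncoding genes, which were left out.

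Each of 14884 genes was tested with limma 3.58.1 (R 4.3.3; lmFit, eBayes) fitted to the 6 arrays together, with a term for group (3 residual and 2.68 prior degrees of freedom). P-values are two-sided. The number of arrays limits precision, with a median SE of a difference of 0.11. Alternatives covered the arrays fitted, replicate block, scaling, variance prior, dim genes, probe set choice, features adjusted together and each array left out. Arrays of the same replicate number did not deviate together (correlations of -0.032, 0.038 and -0.050 between groups over genes).

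Members and partner lists were chosen with earlier results of these data known. The members with values were those called in a comparison and, in each role group, the 3 with the lowest p with securinine and the 2 with 16F16. In each partner list the 3 with the lowest p with securinine were named. VPS37B, the genes next to called members and, with securinine, VPS50, VPS52, VPS28, VPS13A and RAB3GAP2 were added after their values were seen. A fixed rule on V-ATPase members and their promoters had no gene to apply to.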

Additional observations from a re-analysis of the deposited data

How the results depend on the processing

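With securinine against mock, higher and lower member calls were 8 and 2. They were 6 and 2 with the 4 arrays of these groups alone and 7 and 2 with arrays centred on their median. The replicate block gave 5 and 2, against 8 and 2 without it, quantile normalization 8 and 3, a variance prior that followed intensity (the intensity trend) 16 and 5, genes above the median of all probe sets 13 and 4 (of 43 members left), and a fit of all probe sets 1 and 1. All genes moved in the same direction, with 13.0% higher and 14.8% lower with the trend and 16.4% and 19.5% above the median. With all probe sets 2.9% and 3.9% of all genes were called, against 8.4% and 10.6% in the main fit. In that fit of all probe sets the members' share of higher calls was no longer above that of all genes. Without 1 array they were 0 to 6 and 1 to 2. With 16F16 against mock, 0 and 0 became 3 and 3 with the intensity trend and 1 and 2 with genes above the median. They stayed 0 with the replicate block, where 0 of all named genes were called too. With securinine against 16F16, 3 and 2 became 0 and 0 with 4 arrays or all probe sets, 0 and 1 with the replicate block, 1 and 4 with quantile normalization, 1 and 1 with centring, 12 and 4 with the intensity trend, 8 and 4 with genes above the median, and 0 to 0 without 1 array. Of all genes 10.4% and 10.5% were called there with the trend and 11.3% and 12.7% above the median, against 3.96% and 5.55%. The replicate numbers are shared by name only. Among members named, 7 differences changed sign, none of them called. Without 1 array, RAB6D ranged from -0.44 to 0.24 with securinine and from -0.53 to 0.15 with 16F16, VPS9D1 from -0.01 to 0.12, RAB3GAP2 from -0.03 to 0.02 and VPS52 from -0.06 to 0 with securinine, and VPS26C from -0.02 to 0.38 and VPS33A from -0.07 to 0 with 16F16. Over the alternatives the MiT/TFE and lysosome list had 8 to 19 higher and 0 to 2 lower with securinine, and 0 to 12 higher with 16F16. Higher and lower ranges with securinine were 0 to 7 and 1 to 4 (Rab regulators), 0 to 6 and 2 to 8 (effectors), 0 to 9 and 0 to 4 (VPS partners), 0 to 8 and 1 to 7 (SNAREs), and 0 to 1 and 0 to 0 (V-ATPase partners). The cause was not tested. No detection call was used, so a dim probe set cannot be told from low expression.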
